A study of Homo sapiens with 6 samples.

Results

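The 10 genes described here encode secreted cytokines and chemokines that epithelial tumour cells can make: IL32, IL11, LIF, CSF1, IL18, IL6, IL1A, IL1B, CXCL8 and CXCL1. They were chosen by name from a table of 78932 Ensembl genes, with their read counts and the contrast between docetaxel and control in view, so their values in that contrast are given as a description and carry no test of their own. Poly(A) RNA was sequenced from 3 libraries of HCC1937 cells treated with 8 nM docetaxel for 24 h and from 3 libraries of control HCC1937 cells, both groups being labelled as biological replicates. HCC1937 is an established human breast cancer line, mutant for BRCA1 and classed as triple-negative, grown without immune or stromal cells. Docetaxel is a taxane that stabilises microtubules. The labels do not say what the control cells received or whether replicates were grown on separate days, so a p-value here covers no more than the spread among the 6 libraries, which may be technical.

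Cytokines of this kind carry signals between tumour cells and the cells around them. IL6, IL11 and LIF belong to a family that signals through the shared receptor chain gp130 (gene IL6ST), JAK kinases and the transcription factor STAT3. IL1A, IL1B and IL18 belong to the interleukin-1 family, whose receptors act through the adaptor MYD88 and NF-kB. CXCL8 and CXCL1 attract neutrophils through CXCR1 and CXCR2, CSF1 is the growth factor of macrophages, and IL32 is a cytokine that mice lack and that has no close relatives among the others. Transcription of many of these genes is driven by NF-kB and AP-1, and their mRNAs are often short-lived because AU-rich elements in the 3′ UTR bind decay factors such as ZFP36.

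The libraries held between 38622062 and 41675186 counts. A gene with 0 reads in a library could still have had up to 3 counts there, which is 0.0705 to 0.0787 CPM (counts scaled to library size with TMM factors), and such limits cover counting error only. Of 12 breast epithelial markers, EPCAM, KRT19, KRT5, KRT14, CLDN3 and TP63 had at most 12 reads in any library, while KRT8, KRT18 and KRT7, luminal keratins, were abundant. With KRT17, a basal keratin, these were the 4 called higher (edgeR adjusted p under 0.05) of 6 epithelial markers tested, against 9.14% of all genes tested. CDH1, with 15 to 40 reads per library, and CLDN4 were not called. The 12 summed to between 3313 and 3431 CPM in docetaxel libraries and between 2783 and 2915 CPM in control libraries. Of 11 leukocyte markers, PTPRC, the pan-leukocyte gene CD45, had 1 read in all 6 libraries together, and MS4A1 and FCGR3A had 0. The summed leukocyte markers ran from 3.54 to 4.48 CPM in docetaxel libraries and from 1.74 to 2.92 CPM in control libraries, and of the 3 with enough reads to test, CD14 was called higher (log2 fold change 0.77, edgeR adjusted p = 0.038). The 9 fibroblast and endothelial markers summed to between 149 and 154 CPM in docetaxel libraries and between 142 and 146 CPM in control libraries, nearly all from COL1A1. For these markers no values are given from the alternative fits described below, including those with offsets for base composition. Whether these markers had a part in the results was not tested.

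In GENCODE 29 on GRCh38, CXCL8 (ENSG00000169429) lies at chr4:73740506-73743716 and CXCL1 (ENSG00000163739) at chr4:73869393-73871242, both on the plus strand. IL1A (ENSG00000115008, chr2:112773915-112784590) and IL1B (ENSG00000125538, chr2:112829751-112836903) are neighbours on the minus strand. IL32 (ENSG00000008517) lies at chr16:3065297-3082192, IL6 (ENSG00000136244) at chr7:22725884-22732002 and CSF1 (ENSG00000184371) at chr1:109910242-109930992, all on the plus strand. IL11 (ENSG00000095752) lies at chr19:55364389-55370463, LIF (ENSG00000128342) at chr22:30240447-30246851 and IL18 (ENSG00000150782) at chr11:112143251-112164117, all on the minus strand.

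Promoter windows for 7 of the 10 genes were found in RefSeq (GRCh38.p14, 250 bases before to 50 after the start), with a second window each for IL32 and IL1A. The windows of 3 genes are shown because they belong to IL32 and IL11, which had the largest differences among the better-covered genes, and to CXCL8, which had no reads. Capitals mark matches, on either strand, to simple motif letters for AP-1 (TGANTCA), NF-kB (GGNNTTTCC), C/EBP (TTNNGCAA) and the TATA box (TATAAA). The windows lie at chr16:3065153-3065452 on the plus strand (IL32, first window), chr19:55370414-55370713 on the minus strand (IL11) and chr4:73740319-73740618 on the plus strand (CXCL8).
IL32: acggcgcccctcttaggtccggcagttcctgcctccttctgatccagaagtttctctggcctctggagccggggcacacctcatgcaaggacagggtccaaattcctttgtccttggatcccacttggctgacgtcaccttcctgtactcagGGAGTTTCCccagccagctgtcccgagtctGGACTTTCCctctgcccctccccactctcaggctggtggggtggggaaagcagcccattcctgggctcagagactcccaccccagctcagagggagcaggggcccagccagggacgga
IL11: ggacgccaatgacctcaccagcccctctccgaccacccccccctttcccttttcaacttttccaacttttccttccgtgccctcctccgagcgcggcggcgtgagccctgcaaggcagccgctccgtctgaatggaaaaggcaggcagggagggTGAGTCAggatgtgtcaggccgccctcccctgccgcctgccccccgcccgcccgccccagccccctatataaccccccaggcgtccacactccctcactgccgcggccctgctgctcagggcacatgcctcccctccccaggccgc
CXCL8: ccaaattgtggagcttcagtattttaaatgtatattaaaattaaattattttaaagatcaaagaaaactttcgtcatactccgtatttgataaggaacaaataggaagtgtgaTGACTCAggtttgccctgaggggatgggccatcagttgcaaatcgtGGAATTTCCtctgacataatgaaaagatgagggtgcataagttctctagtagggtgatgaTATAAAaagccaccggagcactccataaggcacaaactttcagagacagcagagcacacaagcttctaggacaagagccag

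The IL32 window held 2 NF-kB matches, which began 98 and 68 bases before the start. The IL11 window held 1 AP-1 match, 96 bases before the start, and no match to the other letters. Its stretch tatataa, closer to the start, resembles TATAAA but does not match these letters. The CXCL8 window held an AP-1 match 137 bases, an NF-kB match 91 bases and a TATA match 31 bases before the start, and no match in these windows overlapped another. Among the 7 genes with a window, 4 had an NF-kB match (IL32, IL6, CXCL8 and CXCL1), against 6.26% of all 35116 windows. An AP-1 match was found for 3 of the 7 (IL11, IL1A and CXCL8), against 7.71% of all windows. A C/EBP match was found for 2 (IL6 and IL1B), against 10.5%. A TATA match was found for 2 (CXCL8 and, 239 bases before the start, IL1A), against 11.5%. By window, as in those shares, AP-1 and NF-kB had matches in 4 of 9 each and C/EBP and TATA in 2 of 9. Both IL1A windows overlap and hold the same AP-1 sites. These letter matches describe the windows and do not show binding.

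AU-rich elements were counted in the longest 3′ UTR that GENCODE 29 gives each gene, because they set most of these mRNAs apart from IL18 and IL32. The stretch of 30 bases with the most ATTTA pentamers is shown for 4 genes, with the pentamers in capitals.
IL11: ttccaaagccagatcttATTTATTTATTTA
IL1B: tgagcaaccgcttccctATTTATTTATTTA
CXCL8: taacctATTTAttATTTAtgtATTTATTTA
CXCL1: cttaggagaagtcttctATTTATTTATTTA

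Of the 10 genes, 8 had at least 1 copy of the longer element TATTTAT, against 30.9% of 19436 coding genes with an annotated 3′ UTR, and 7 had at least 3 copies, against 6.07%. IL11 had 7 copies, LIF 5, IL1B, CXCL8 and CXCL1 4 each, IL6 and IL1A 3 each and CSF1 1. IL32 and IL18 had 0 copies of TATTTAT and 0 of ATTTA, in 3′ UTRs of 464 and 345 bases. By density of ATTTA, IL6 stood highest with 14.0 per kb, followed by IL1B with 9.84, against a median of 1.43 per kb over coding genes.

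Levels between genes were compared as TPM (counts divided by the table's gene length and then scaled to a fixed total). IL18, a cytokine made as an inactive precursor that caspase-1 cleaves, was the highest of the 10, with 84.7, 82.2 and 90.2 TPM in docetaxel libraries 1 to 3 and 85.7, 81.2 and 85.6 TPM in control libraries 1 to 3. LIF followed with 12.7, 11.4 and 11.2 TPM in docetaxel libraries and 11.8, 11.4 and 10.3 TPM in control libraries. No library of LIF reached the lowest of IL18, and no library of the next gene reached the lowest of LIF. IL11 and IL32 averaged 1.49 and 1.48 TPM over the 6 libraries, and their ranges overlapped (0.884 to 2.47 TPM for IL11 and 0.380 to 2.31 TPM for IL32). By CPM, which does not correct for length, IL32 stood above IL11.

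The other 6 genes lay near or at the counting floor. IL1B averaged 0.294 TPM, with a range that overlapped the lowest library of IL32 and the range of IL6, which averaged 0.161 TPM. IL1A averaged 0.0879 TPM and CSF1 0.0597 TPM, and their ranges overlapped each other and that of IL6. CXCL8 and CXCL1 had 0 reads in all 6 libraries. Among genes with at least 1 read, the mean TPM of IL18 stood at percentile 96.6, that of LIF at 84.5 and that of IL11 at 69.2. The genes above 1 TPM thus included both genes without AU-rich elements and both LIF and IL11, which carry several.

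**Figure D1:**
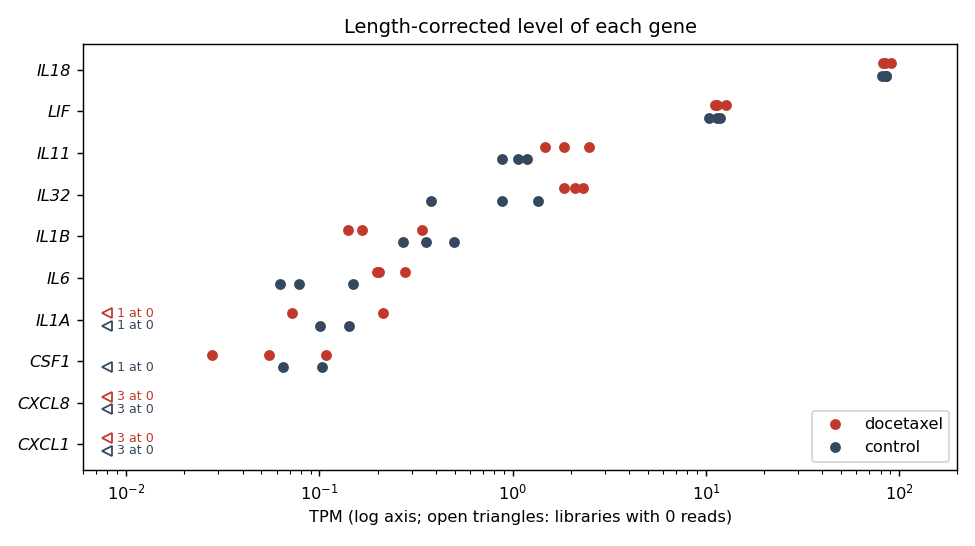
Level of each of the 10 genes in TPM on a log axis, with 1 point per library (docetaxel above, control below) and open triangles for libraries with 0 reads. IL18 lay between 81.2 and 90.2 TPM and LIF between 10.3 and 12.7 TPM, while CXCL8 and CXCL1 had no reads in any library.

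The contrast of docetaxel with control asked how the drug changed each cytokine mRNA. The fit covered all 18040 genes with enough reads, which here meant about 10 reads, or 0.256 CPM, in at least 3 libraries. Of the 10 genes, 6 entered it. IL32, IL11, LIF and IL18 passed this filter in both groups. IL6 passed it only through the docetaxel libraries, and IL1B reached it in 3 control libraries and 1 docetaxel library, so the presence of these 2 in the fit already depended on the group where they were higher. CSF1 and IL1A reached the minimum in 0 libraries.

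The edgeR calls from a two-sided test over the whole table (adjusted p under 0.05) took in 2 of the 10 genes as higher with docetaxel, IL32 and IL11, and 0 as lower. Over all genes tested, 9.14% were called higher and 7.82% lower, which is 1649 and 1410 genes, and with library-size scaling alone the split was 1096 higher and 1866 lower. The count of 0 lower was also 0 at an unadjusted p under 0.05, with DESeq2 and with limma-voom. The docetaxel libraries lay entirely above the control libraries for IL32, IL11 and IL6 and entirely below for none of the 10, while 32.0% of all tested genes had groups that did not overlap. The contrast was in view when the genes were picked, so nothing is read from these counts. In RNA from whole cultures, fewer cells that express a gene and less of its RNA per cell cannot be told apart.

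IL32, whose product is secreted by epithelial and immune cells, had the clearest difference. It had 81, 105 and 94 reads in docetaxel libraries 1 to 3, against 17, 64 and 42 reads in control libraries 1 to 3. Every docetaxel library was above every control library, and control library 1 was by far the lowest. The means were 2.43 ± 0.32 CPM with docetaxel and 0.984 ± 0.537 CPM in control (SD, n = 3 each), a 2.45-fold difference with a 95% confidence interval of 1.56 to 3.85. Without control library 1 the log2 fold change was 0.94, against 1.29 with all libraries, and IL32 stayed past the threshold in each of the 16 alternative fits. RNU1-125P, a U1 pseudogene, overlaps its exons by 129 bases on the same strand and had 0 reads in all libraries. The control libraries varied more than the docetaxel libraries, with coefficients of variation of 13.4% with docetaxel and 54.5% in control.

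IL11, a gp130 cytokine known from fibrosis and from breast cancer spread to bone, had 91, 70 and 55 reads in docetaxel libraries 1 to 3, against 40, 35 and 47 reads in control libraries 1 to 3. The groups did not overlap, with docetaxel library 1 highest and docetaxel library 3 close to the highest control library. The means were 1.88 ± 0.47 CPM with docetaxel and 0.992 ± 0.160 CPM in control (SD, n = 3 each), a 1.89-fold difference with a 95% confidence interval of 1.23 to 2.89. The log2 fold change was 0.92 with all libraries and 0.70 without docetaxel library 1. IL11 fell short of the threshold in 10 of 16 alternative fits, among them DESeq2 and limma-voom, and those without docetaxel library 1 or 2 or control library 1 or 2. GENCODE 29 lists no other gene's exons over those of IL11. It places 57356 of the 78932 genes counted, so exons of the rest could not be checked against any of the 10 genes.

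IL6, the founding gp130 cytokine, had 12, 17 and 12 reads in docetaxel libraries 1 to 3, against 9, 5 and 4 reads in control libraries 1 to 3. The docetaxel libraries were all above the control libraries, by as little as 3 reads. Summed over libraries, 41 reads with docetaxel (exact Poisson 95% interval 29.4 to 55.6) stood against 18 in control (10.7 to 28.4). Such Poisson intervals, here and below, cover counting error only and leave out the spread between libraries. The log2 fold change of 1.26 had a standard error of 0.67, its 95% confidence interval of -0.09 to 2.62 included 0, and IL6 was not called. GENCODE 29 places exons of the antisense genes STEAP1B and AC073072.1 over IL6. STEAP1B had 0 to 6 reads per library and AC073072.1 had 0, and without a known strand setting their reads cannot be told apart from those of IL6.

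LIF, which keeps stem cells undifferentiated in mouse culture and signals through LIFR and gp130, was the better measured member of the family. It had 678, 627 and 605 reads in docetaxel libraries 1 to 3, against 639, 650 and 591 reads in control libraries 1 to 3, and the groups overlapped. The means were 16.6 ± 1.0 CPM with docetaxel and 15.3 ± 0.9 CPM in control (SD, n = 3 each). The fold was 1.09 with a 95% confidence interval of 0.949 to 1.24, and LIF was not called. The antisense genes LIF-AS1 and AC004264.1 overlap its exons, with 0 to 5 reads per library each.

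**Figure D2:**
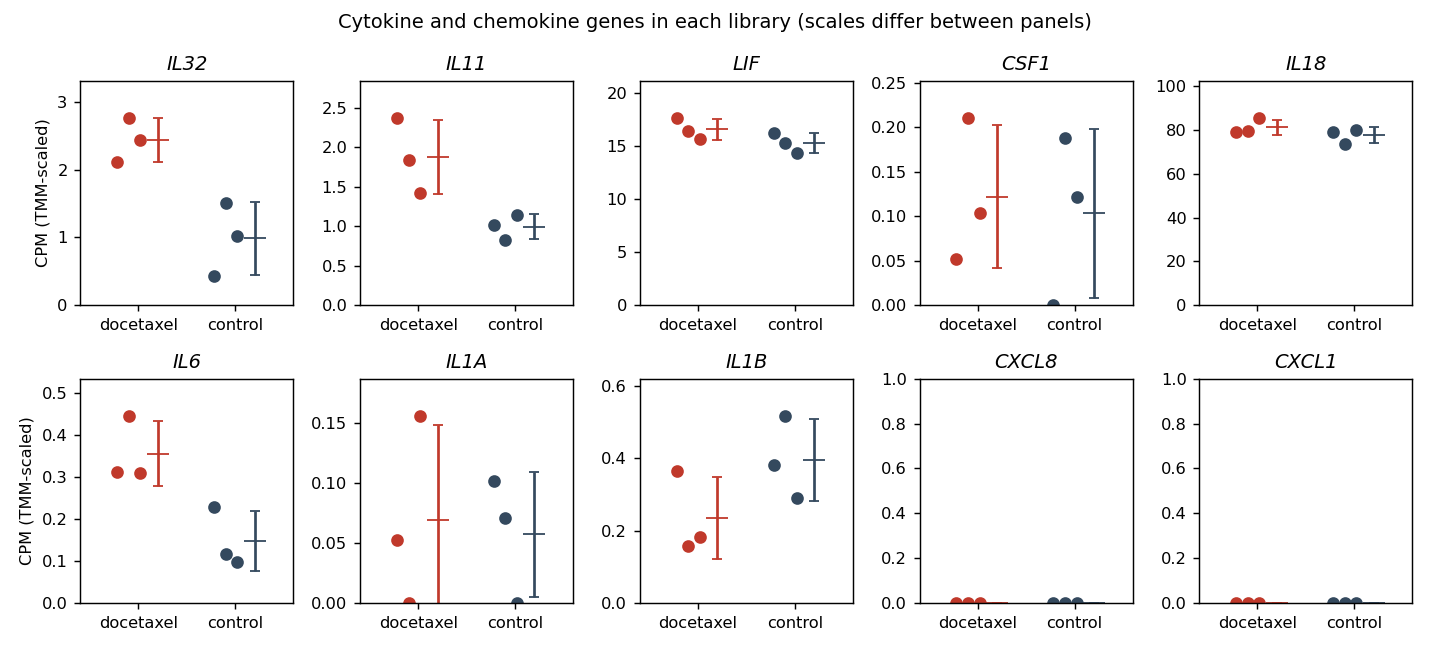
CPM of each of the 10 genes by library, with points for libraries and a bar for the mean and SD beside them (n = 3 each, docetaxel left, control right, axes from 0 with a scale of their own). Docetaxel and control points do not overlap for IL32, IL11 and IL6.

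IL18 was measured most precisely, with 3035, 3032 and 3292 reads in docetaxel libraries 1 to 3, against 3118, 3132 and 3305 reads in control libraries 1 to 3. The groups overlapped, and in both the third library was highest. The means were 81.2 ± 3.5 CPM with docetaxel and 77.6 ± 3.5 CPM in control (SD, n = 3 each). The fold was 1.05 with a 95% confidence interval of 0.972 to 1.13, and IL18 was not called. This value moved with offsets for GC content and length, which were fitted to each library without regard to its group. Across these libraries genes of high GC content tended to be higher with docetaxel and genes of low GC content lower, and the 2312 tested genes within 2 percentage points of the 39.2% GC of IL18 had a median log2 fold change of -0.17. IL18 was at 0.07, and with offsets for GC content and length at 0.22 (standard error 0.05), where it was called higher.

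These offsets also moved the other genes. Because the GC trend ran along the treatment, they would also remove a docetaxel difference that follows GC content. Such a difference and a technical trend cannot be told apart here. IL32 has 58.7% GC, and the 2001 tested genes near that value had a median log2 fold change of 0.14. With offsets its log2 fold change was 1.14 and it was still called. IL11 was at 0.81 with offsets and not called. LIF was at -0.01 with offsets, with its sign turned, IL6 at 1.33 and IL1B at -0.72. With offsets 2 of the 10 genes were called higher, IL32 and IL18. Over all 18040 genes tested, 413 were called higher with offsets, against 1649 without. The counts with and without offsets thus stand beside different shares of all genes, and nothing is read from them.

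IL1B, an inflammatory cytokine that is also cleaved by caspase-1, had 14, 6 and 7 reads in docetaxel libraries 1 to 3, against 15, 22 and 12 reads in control libraries 1 to 3. The groups overlapped, because docetaxel library 1 lay above control library 3. The sums were 27 reads with docetaxel (exact Poisson 95% interval 17.8 to 39.3) and 49 in control (36.3 to 64.8). The log2 fold change was -0.75 with a 95% confidence interval of -2.00 to 0.49, and IL1B was not called. Without docetaxel library 1 it was -1.23, also not called.

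IL1A, which is active without cleavage and can act inside the nucleus, had 2, 0 and 6 reads in docetaxel libraries 1 to 3, against 4, 3 and 0 reads in control libraries 1 to 3. The sums of 8 reads with docetaxel (exact Poisson 95% interval 3.45 to 15.8) and 7 in control (2.81 to 14.4) overlapped in their intervals. CSF1 had 2, 8 and 4 reads in docetaxel libraries 1 to 3, against 0, 8 and 5 reads in control libraries 1 to 3, with sums of 14 (7.65 to 23.5) and 13 (6.92 to 22.2). At this depth no difference was detectable for either gene.

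CXCL8 and CXCL1 were listed at 0 reads in every docetaxel and every control library, so no fold can be given. Some genes that most cells express were also near 0 in this table. MIF, a widely expressed cytokine, had 5, 12 and 5 reads in docetaxel libraries 1 to 3 and 0, 5 and 16 reads in control libraries 1 to 3. MYD88, the adaptor of interleukin-1 receptors, had 0, 4 and 2 reads in docetaxel libraries and 8, 2 and 6 reads in control libraries. PYCARD, from the list of processing genes below, and some of the epithelial markers above were also at or near 0. Why these genes had so few reads was not tested, so a count of 0 need not mean that a gene was silent.

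**Figure D3:**
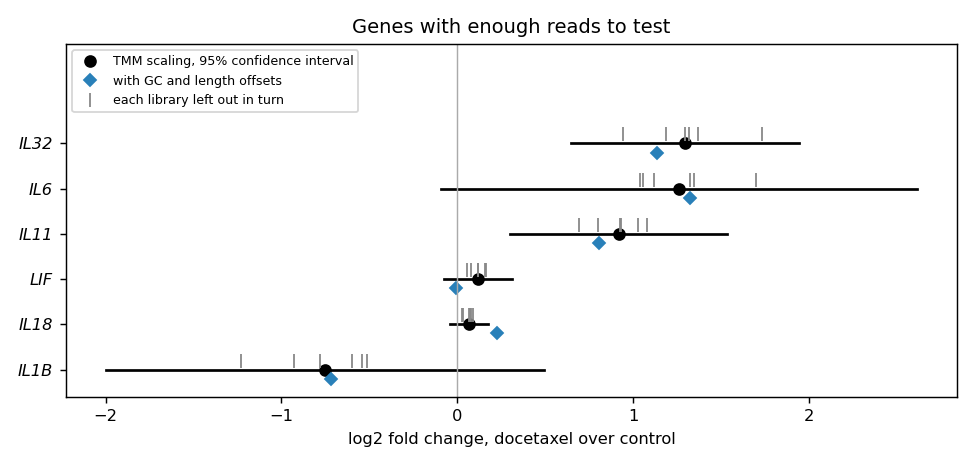
Log2 fold change of docetaxel over control for the 6 genes with enough reads, with the 95% confidence interval (line), the value with GC and length offsets (diamond) and the values with each library left out in turn (ticks). The intervals of IL32 and IL11 lie above 0, and the diamond of IL18 lies at 0.22, beyond its interval.

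Of the 11 receptor genes for these cytokines, 8 had enough reads to test. Of these, 2 were called lower and 0 higher, against 7.82% and 9.14% of all genes tested. This list and those below were chosen with earlier results known, so nothing is read from their counts. The median log2 fold change of the receptor genes was -0.25, against 0.01 over all tested genes. With GC and length offsets the median of the receptor genes was -0.11. The count of 0 higher stood at 1, CSF1R, at an unadjusted p under 0.05. Both called genes encode chains of the receptor for LIF. LIFR, its specific chain, had 107 ± 8 CPM with docetaxel and 137 ± 11 CPM in control (SD, n = 3 each), and fell by 0.35 on the log2 scale with a standard error of 0.06 (edgeR adjusted p = 0.00022). IL6ST, which encodes gp130, had 69.0 ± 6.3 CPM with docetaxel and 88.0 ± 6.3 CPM in control (SD, n = 3 each), and also fell by 0.35 with a standard error of 0.06 (edgeR adjusted p = 0.00027). For both genes all 3 docetaxel libraries lay below all 3 control libraries.

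These receptor genes have 36.2% and 36.6% GC, and with GC and length offsets their log2 fold changes were -0.09 and -0.10 and neither was called (edgeR adjusted p of 0.24 and 0.27). As said above, these offsets would also remove a docetaxel difference that follows GC content. Neither IL6R nor IL11RA, the gp130 partner chains for IL6 and IL11, was called. IL6R had 16.7 ± 2.6 CPM with docetaxel and 16.6 ± 2.5 CPM in control (SD, n = 3 each), and IL11RA had 1.37 ± 0.47 and 1.48 ± 0.35 CPM in the same order. CSF1R, the receptor for CSF1, was at a log2 fold change of 0.38 (edgeR adjusted p = 0.059), with docetaxel libraries all above control libraries. IL1R1, the signalling receptor for IL1A and IL1B, was at -0.41 (adjusted p = 0.40), and ran from -0.72 without docetaxel library 2 to -0.26 without docetaxel library 1. CXCR1 and CXCR2, the receptors of CXCL8 and CXCL1, had 0 reads in all libraries.

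Among 18 antagonists, feedback inhibitors and processing enzymes, 15 were tested. Of these, 2 were called higher and 2 lower, against 9.14% and 7.82% of all genes tested. The median log2 fold change was 0.09, or -0.02 with GC and length offsets, where its sign turned. GSDMD, the pore-forming gasdermin through which IL1B and IL18 leave cells, had 48.4 ± 3.1 CPM with docetaxel and 39.3 ± 2.7 CPM in control (SD, n = 3 each), which is 0.30 higher on the log2 scale (edgeR adjusted p = 0.0018). CAPN1, a calpain protease subunit, was higher by 0.16 (adjusted p = 0.015). The shedding proteases ADAM10 and ADAM17, which cut cytokine receptors such as IL6R from the cell surface, fell by 0.23 and 0.30 (adjusted p of 0.0083 and 0.041). CAPN1 lost its call without docetaxel library 3 or control library 2, ADAM10 without control library 3, and ADAM17 without any 1 of the 6 libraries. With GC and length offsets none of these 4 was called, and 1 other gene, CAPN2, was (log2 fold change 0.16, adjusted p = 0.0069). CASP1, which cleaves IL1B and IL18, had 12, 12 and 13 reads in docetaxel libraries 1 to 3 and 14, 28 and 22 reads in control libraries 1 to 3 (adjusted p = 0.45). Its relative CASP4 averaged 8.50 ± 0.37 CPM with docetaxel and 7.86 ± 1.08 CPM in control (SD, n = 3 each). PYCARD, of the same list, had 0 reads in all 6 libraries.

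Of 20 genes that transmit these signals or control cytokine mRNA decay, 19 were tested. Calls were 3 higher and 2 lower, against 9.14% and 7.82% of all genes tested, and the median log2 fold change was -0.01. IRAK1, a kinase downstream of MYD88, was higher by 0.19 on the log2 scale (edgeR adjusted p = 0.0015), TYK2, a JAK-family kinase, by 0.16 (0.014) and KHSRP, a decay factor of AU-rich mRNAs, by 0.15 (0.0074). TIA1, which binds AU-rich mRNAs and holds back their translation, fell by 0.30 (0.0048). TYK2 lost its call without docetaxel library 3 or control library 2 or 3, and TIA1 without docetaxel library 2. JAK2, a kinase that acts with gp130, fell by 0.54 (0.025), to 7.16 ± 2.11 CPM with docetaxel, against 10.4 ± 1.3 CPM in control (SD, n = 3 each), and lost its call without docetaxel library 2 or 3 or control library 2, with a log2 fold change of -0.35 without docetaxel library 3. With offsets none of these 5 was called, KHSRP was at -0.00053 and JAK2 at -0.36, and IRAK4, another kinase of the MYD88 complex, was called higher (0.38, adjusted p = 0.029). ZFP36, the best known factor in the decay of cytokine mRNAs, was at a log2 fold change of 0.17 (adjusted p = 0.29), and STAT3 at -0.10 (adjusted p = 0.13). ZFP36, STAT3, CASP1, CASP4, PYCARD, IL6R, IL11RA, MIF and MYD88 were chosen after their values were seen.

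Other cytokines were mostly low, with 17 of 45 tested. Calls were 1 higher and 1 lower, against 9.14% and 7.82% of all genes tested. Their median log2 fold change was -0.01, or -0.14 with offsets. KITLG, the ligand of the KIT receptor, fell by 0.51 on the log2 scale, to 20.9 ± 2.3 CPM with docetaxel, against 29.7 ± 2.7 CPM in control (SD, n = 3 each, edgeR adjusted p = 0.00015), and by 0.28 with offsets, where it was still called (adjusted p = 0.026). With a replicate block added to the offsets KITLG was not called. TNFSF9, the ligand of 4-1BB on T cells, was the most abundant of the list, at 238 ± 6 CPM with docetaxel and 215 ± 3 CPM in control (SD, n = 3 each, adjusted p = 0.012), and it was not called with offsets (adjusted p = 0.93) or without docetaxel library 1 or control library 1. CLCF1, a gp130 cytokine, was at 0.19 (adjusted p = 0.36), with docetaxel libraries all above control libraries, and TNFSF13, the B cell cytokine APRIL, was at 0.54 (adjusted p = 0.094). TNFSF13 was at 0.22 without docetaxel library 1 and at 0.73 without docetaxel library 3, where it was called (adjusted p = 0.045).

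Of 20 other chemokines 6 were tested and 0 were called by edgeR, DESeq2 or limma-voom, with 1, CCL5, at an unadjusted p under 0.05. Over all genes tested, edgeR called 9.14% higher and 7.82% lower. CCL5, which attracts T cells, had 352, 373 and 329 reads in docetaxel libraries 1 to 3, against 279, 295 and 340 reads in control libraries 1 to 3, and was at a log2 fold change of 0.30 (edgeR adjusted p = 0.10). CCL28, CCL26 and CCL2 were at -0.27, 0.51 and -0.25, and none of these 3 was called. Leaving out 1 library in turn moved CCL2 between -0.71 (without docetaxel library 1) and 0.02 (without docetaxel library 3), and CCL26 between 0.19 (without control library 3) and 0.90 (without control library 1). CCL28 was at -0.16 without docetaxel library 3 and at -0.17 without control library 2. Among relatives of CXCL8 and CXCL1 on chromosome 4, CXCL6 and CXCL9 also had 0 reads in all libraries. CXCL3, a close relative of CXCL1, had 5, 10 and 13 reads in docetaxel libraries 1 to 3, against 0, 3 and 5 reads in control libraries 1 to 3. Its sums were 28 reads with docetaxel (exact Poisson 95% interval 18.6 to 40.5) and 8 in control (3.45 to 15.8), too few to test, and docetaxel library 1 had as many reads as control library 3. These intervals, too, leave out the spread between libraries. CXCL2 averaged 0.434 ± 0.145 CPM with docetaxel and 0.421 ± 0.066 CPM in control (SD, n = 3 each). CXCL10, an interferon-induced chemokine, had 13, 9 and 5 reads in docetaxel libraries 1 to 3, against 2, 2 and 0 reads in control libraries 1 to 3, too few to test. CXCL2, CXCL3, CXCL6, CXCL9 and CXCL10 were chosen after their values were seen.

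**Figure D4:**
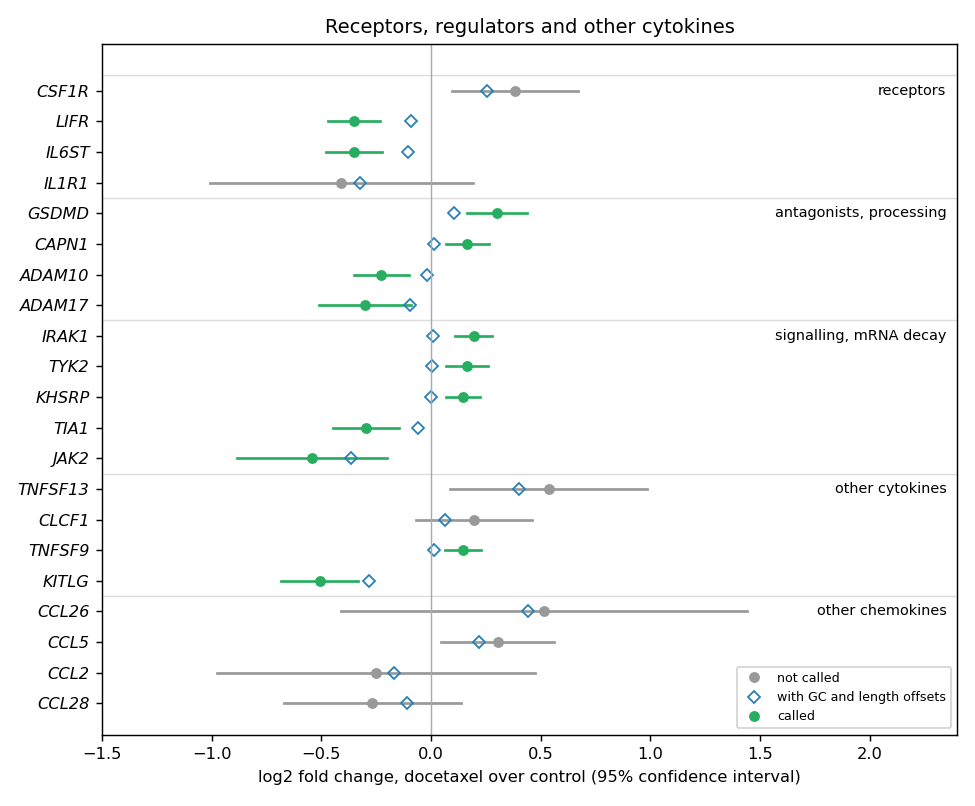
Log2 fold change of docetaxel over control with 95% confidence intervals for named receptors, regulators, other cytokines and other chemokines (green where called, grey where not), with open diamonds for the value with GC and length offsets. LIFR and IL6ST lie at -0.35 and move to -0.09 and -0.10 with offsets.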

How the data were processed

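Per the labels, poly(A) libraries were sequenced as paired reads of 150 bases on a NovaSeq. The authors deposited raw read counts per gene, made with featureCounts 2.0.1 on GRCh38 per the submitters' processing notes, which also name MultiQC 1.11. For the aligner, annotation release and strand setting, each is not given in the sources used here. The deposited table also holds a gene length column, used here for TPM. The members and lists were chosen with earlier results of these data known. GC offsets had been chosen after earlier results were seen.

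Gene symbols were looked up by Ensembl identifier, and all members and listed genes matched. Coordinates, GC content of the longest transcript (91.0% of tested genes) and 3′ UTRs came from GENCODE 29 on GRCh38. edgeR 4.0.16 in R 4.3.3 was run with filterByExpr, TMM, estimateDisp, robust glmQLFit and glmQLFTest, two-sided, with Benjamini-Hochberg adjustment over 18040 genes, which held 99.9% of counts, and a call at an adjusted p under 0.05. There was 1 comparison. Each standard error was back-calculated from the log2 fold change and the F statistic. The fit was tested on simulated data with a dispersion shared by all genes. Changes were placed only in genes with more control reads than IL32, IL11, IL6 and IL1B, so that check does not cover these. Within groups, pairs of libraries had a Poisson dispersion index between 4.92 and 12.7, so none appeared to be deposited more than once. Named from each of the 5 other lists, with 114 genes, were the 4 tested genes with the smallest p and any called gene. A result for a listed cytokine gene is not reported here.

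Alternatives, 16 fits in all, were DESeq2 1.42.0, limma-voom (limma 3.58.1), scaling by RLE, by upper quartile or by library size alone, no filter, at least 1 CPM in 3 libraries, a replicate block, leaving out each library in turn, loess offsets (span 0.5) of each library's log2 CPM deviation on GC content and log2 length, and these with the block.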

Additional observations from a re-analysis of the deposited data

How the results depend on the processing

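Reads were fewest for CXCL8 and CXCL1, with 0, and then for IL1A, CSF1, IL6 and IL1B, with 15 to 76 in total over the 6 libraries. Whether sequencing depth was the reason was not tested.

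The count of members called higher, 2, was 1 with DESeq2, limma-voom, no filter on low counts and the replicate block, and 1 to 2 without 1 library. The count of members called lower was 0 in every fit. Receptors called higher went to 1 with upper-quartile scaling and with at least 1 CPM in 3 libraries, and receptors called lower to 0 with GC and length offsets, with or without the block. Antagonists and processing genes called higher were 1 with library-size scaling, with the offsets and with both offsets and block, and 1 to 2 without 1 library. Those called lower were 1 with upper-quartile scaling, no filter and the block, 0 with the offsets alone or with the block, and 0 to 2 without 1 library. Signalling and decay genes called higher were 1 with offsets, 0 with offsets and block and 2 to 3 without 1 library. Those called lower were 5 with library-size scaling, 0 with offsets alone or with the block and 0 to 3 without 1 library. Other cytokines called higher were 0 with library-size scaling and with offsets, alone or with the block, and 0 to 2 without 1 library. Those called lower were 2 with limma-voom and with offsets, 0 with offsets and block, and 1 to 2 without 1 library. Of all genes, 1649 were called higher and 1410 lower. Higher calls numbered 1096 with library-size scaling, 413 with offsets, 278 with offsets and block and 990 to 1397 without 1 library. Lower calls numbered 1866 with library-size scaling, 316 with offsets, 215 with offsets and block and 740 to 1841 without 1 library. Library-size scaling also moved the split between higher and lower calls. The cause of these moves was not tested.

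Signs turned for LIF (-0.0059 with offsets and -0.0063 with offsets and block), KHSRP (-0.00053 and -0.00056) and CCL2 (between -0.71 and 0.02 without 1 library, at 0.022 without docetaxel replicate 3). Same-numbered libraries had correlations of deviations between 0.0070 and 0.016, and differently numbered libraries between -0.014 and 0.0060. All were small, and whether the replicate numbers pair the libraries cannot be told from them. The replicate block, with a log2 fold change of 0.90 for IL11 (adjusted p = 0.057) and 1.40 for IL32 (0.0051), changed the calls of IL11 and ADAM17 and of no other named gene.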
